A study of Mus musculus with 17 samples.

Results

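Transcripts of Tcf7l2, Lef1, Rspo3 and Dkk3, 4 genes tied to Wnt signalling, were followed through single neurons of the anterior thalamic nuclei and through 3 brain sections that contain them. The 4 genes were chosen by name, after earlier results of the same cells and sections had been seen, and were looked up by gene symbol among 52636 genes of the single-cell table and 28692 genes of the spot table. Each was found once in both tables. All samples are labelled as wild type (WT), the cells came from B6 mice, and the labels used here give neither age nor sex. The cells were picked by hand from dissociated tissue of acute slices, and the deposited well table assigns them to 3 animals. Frozen brain was cut and laid on Visium slides, whose spots each catch the RNA of a small patch of tissue. Sections 2 and 6 are labelled as posterior and section 5 as anterior. Because their values chose the 4 genes, these are described below without tests. The labels tie no section to an animal, so errors over sections measure only the spread between these 3 sections.

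Wnt proteins are secreted lipid-modified ligands that bind Frizzled receptors with the co-receptors Lrp5 and Lrp6 and so spare β-catenin from destruction. β-Catenin then joins the DNA-binding factors of the TCF/LEF family, which otherwise sit on target genes with co-repressors of the Tle family. Tcf7l2 and Lef1 encode factors of that family, and Tcf7l2 is a well-known transcription factor of developing and adult thalamic neurons. Rspo3 encodes an R-spondin, a secreted protein that binds Lgr receptors and keeps Frizzled receptors at the membrane by clearing the ubiquitin ligases Znrf3 and Rnf43. Dkk3 encodes a secreted glycoprotein of the Dickkopf family whose place in Wnt signalling is less settled than that of Dkk1.

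In GRCm38.p6, Tcf7l2 (ENSMUSG00000024985) lies at chr19:55741797-55933659, Lef1 (ENSMUSG00000027985) at chr3:131110297-131224357, Rspo3 (ENSMUSG00000019880) at chr10:29453106-29535867 and Dkk3 (ENSMUSG00000030772) at chr7:112116019-112159482. One other annotated gene, Gm31734, overlaps Tcf7l2, and none overlaps the other members. Counting by strand is not given in the sources used here, so reads from the overlapping stretch cannot be told apart. RefSeq promoters were at hand for Tcf7l2, with 2 start sites, and Lef1, with 4. The 250 bases before the first of these listed start sites of each gene are shown because both factors recognise DNA with the core CTTTG. The sequences run 5′ to 3′ on the + strand, chr19:55741560-55741809 for Tcf7l2 and chr3:131110047-131110296 for Lef1. The Tcf7l2 window ends past the gene start of 55741797 given above, so its last bases lie within the annotated gene. Capitals mark CTTTG or, for the other strand, CAAAG.
Tcf7l2: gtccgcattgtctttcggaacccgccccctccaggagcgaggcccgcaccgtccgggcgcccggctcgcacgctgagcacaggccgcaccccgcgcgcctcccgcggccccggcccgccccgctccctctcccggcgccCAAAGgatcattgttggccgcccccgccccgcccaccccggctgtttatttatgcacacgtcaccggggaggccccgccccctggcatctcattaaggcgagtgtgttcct
Lef1: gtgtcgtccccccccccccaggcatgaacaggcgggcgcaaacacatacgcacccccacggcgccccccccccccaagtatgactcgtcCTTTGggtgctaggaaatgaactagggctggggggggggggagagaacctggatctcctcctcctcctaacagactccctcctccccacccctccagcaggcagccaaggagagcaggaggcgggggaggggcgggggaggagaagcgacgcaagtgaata
Each window holds 1 match on 1 strand, as a description and not as a site. CTTTG on either strand is found in 48.6% of all 32851 RefSeq promoter windows of this length, so a match is common. The longer letters CTTTGAA (4.46% of windows) and CTTTGAT (3.21% of windows), searched on both strands, are in neither window. The Tcf7l2 window is 72.8% G and C with 30 CG pairs, and the Lef1 window is 66.4% G and C with 11.

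After filtering, 904 cells with at least 1000 genes were kept, of which 877 were neurons and 27 carried oligodendrocyte markers and were set apart. Animals 1, 2 and 3 gave 101, 317 and 459 neurons. The median count per neuron was 49798, 8872 and 50553 in animals 1, 2 and 3. Clusters of neurons were made without the 4 genes and without the 99 other Wnt pathway genes read below, so that neither could define them. The 4 clusters that every animal filled are named here by their leading gene. They were the C1ql2 cluster (39 cells), the Acta2 cluster (410), the Calb2 cluster (229) and the Rreb1 cluster (174). C1ql2, in all 39 cells of its cluster, is a marker of the anterodorsal nucleus, and Acta2 is a smooth muscle gene that was counted in the Acta2 cluster of animal 3 and was at 0 there in animals 1 and 2. The 8 markers of pericytes and smooth muscle summed to 18.2, 15.4 and 307 CPM (counts in every 1000000 counts) in the Acta2 cluster of animals 1, 2 and 3, and their part in the levels of that cluster was not tested. Gad2 was among the leading genes of the Calb2 cluster. There the 8 markers of GABA neurons summed to 531, 181 and 190 CPM, against 0 to 43.4 CPM in the other named clusters. Their part was not tested either. Of 10 markers of thalamic glutamatergic neurons, at least 8 were counted in every animal's C1ql2 cluster, with Ramp3 at 0 in all 3 animals. These markers summed to 2660, 2677 and 2400 CPM there, against 3807 to 4952 CPM in the other named clusters. The part of this in the levels of the C1ql2 cluster was not tested. The C1ql2 cluster was deeper than the others, with a median of 121250 counts per cell, against 26576 in the Acta2 cluster, 40549 in the Calb2 cluster and 19486.5 in the Rreb1 cluster. A further 25 neurons, none from animal 1, formed an unnamed cluster that was not compared.

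Levels in cells are the CPM of all counts of 1 animal's cells in 1 cluster. Tcf7l2 was present throughout: 840 of 877 neurons held a count. It was lowest in the C1ql2 cluster, with 638, 378 and 408 CPM in animals 1, 2 and 3. The Acta2 cluster held 771, 671 and 660 CPM, the Calb2 cluster 839, 710.4 and 771 CPM, and the Rreb1 cluster 1261, 971 and 1149 CPM. Tcf7l2 in the C1ql2 cluster was thus below every other cluster in every animal, and the Rreb1 cluster was above every other. The neighbouring Acta2 and Calb2 clusters overlapped. The C1ql2 cluster was lower than the mean of the other clusters by a log2 difference of -0.85 ± 0.14 (SE, edgeR), and the Rreb1 cluster was higher by 0.91 ± 0.12. Here and below, a log2 difference is from the mean of the other groups' log2 levels, not of their CPM. Within the 24 C1ql2 cells of animal 3 the quartiles were 254, 419 and 500.4 CPM per cell, so the level was spread over the cells, and no cell held over 8.80% of the cluster's 1819 Tcf7l2 counts. In animals 1 and 2, with 6 and 9 cells, the top cell held 35.6% and 19.7% of that animal's counts.

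Lef1 was also lowest in the C1ql2 cluster, with 51.2, 43.4 and 53.3 CPM in animals 1, 2 and 3. It reached 177, 221 and 199 CPM in the Acta2 cluster, 104, 154 and 130.3 CPM in the Calb2 cluster and 143, 133 and 193 CPM in the Rreb1 cluster. The C1ql2 range lay apart from all others, while those of the other 3 clusters overlapped from neighbour to neighbour. In the C1ql2 cluster 1 cell held 52.8%, 57.1% and 18.7% of the Lef1 counts of animals 1, 2 and 3. The value of animal 2 rested on 7 counts in 2 of 9 cells. The log2 difference of the C1ql2 cluster from the mean of the others was -1.63 ± 0.27 (SE), and that of the Acta2 cluster was 0.96 ± 0.22. Lef1 is also active in endothelial cells. In the Acta2 cluster, 169 cells with a count of an endothelial marker held 191 CPM of Lef1 and 241 cells without one held 206 CPM. The summed endothelial markers reached 129, 43.4 and 46.4 CPM in the C1ql2 cluster and 24.9, 23.8 and 115 CPM in the Acta2 cluster, with Cdh5 and Tek at 0 in the C1ql2 cluster of every animal. In the C1ql2 cluster, 27 cells with an endothelial count held 36.8 CPM of Lef1 and 12 cells without one 102 CPM. In the Calb2 cluster Lef1 was higher in the 88 cells with an endothelial count, at 143 CPM, against 112 CPM in the 141 without one. In the Rreb1 cluster it was at 188 CPM in 70 cells with one, against 172 CPM in 104 without.

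Rspo3, the R-spondin, ran the other way. In the C1ql2 cluster it stood at 193, 198 and 217 CPM in animals 1, 2 and 3. The Acta2 cluster held 11.8, 10.7 and 6.67 CPM, the Calb2 cluster 0, 8.63 and 15.7 CPM, and the Rreb1 cluster 75.1, 7.26 and 1.67 CPM. No range touched that of the C1ql2 cluster, and the other 3 overlapped. The 75.1 CPM of the Rreb1 cluster in animal 1 rested on 43 counts in 4 of 15 cells, 62.8% of them in 1 cell. The log2 difference of the C1ql2 cluster was 4.05 ± 0.75 (SE), and 5.08 without animal 1. Of the cluster's 864 Rspo3 counts the top cell held 7.99%, and 35 of 39 cells held a count. Within animals 1 and 2 the top cell held 30.1% and 31.25% of that animal's counts.

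Dkk3, the other secreted protein, was highest in the C1ql2 cluster too, with 253, 93.0 and 231 CPM in animals 1, 2 and 3, but it had a second site. The Acta2 cluster held 53.9, 45.7 and 81.5 CPM. The Calb2 cluster held 0.546, 1.23 and 3.46 CPM, and the Rreb1 cluster 0, 0 and 4.47 CPM. The C1ql2 cluster lay above the Acta2 cluster in every animal, and both lay above the Calb2 and Rreb1 clusters, which overlapped near 0. In animal 1, 56.2% of the C1ql2 cluster's Dkk3 counts came from 1 of 6 cells, and without the top cell of each animal the cluster's mean was 149 CPM. The log2 difference from the mean of the others was 5.02 ± 0.44 (SE) in the C1ql2 cluster, or 6.63 without animal 3. It was 2.80 ± 0.43 in the Acta2 cluster, or 4.38 without animal 3. That difference is from a mean of log2 levels, which includes the Calb2 and Rreb1 clusters near 0. In CPM, the Acta2 mean of 60.4 did not exceed the plain mean of the other clusters, which averaged 192, 1.75 and 1.49.

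**Figure D1:**
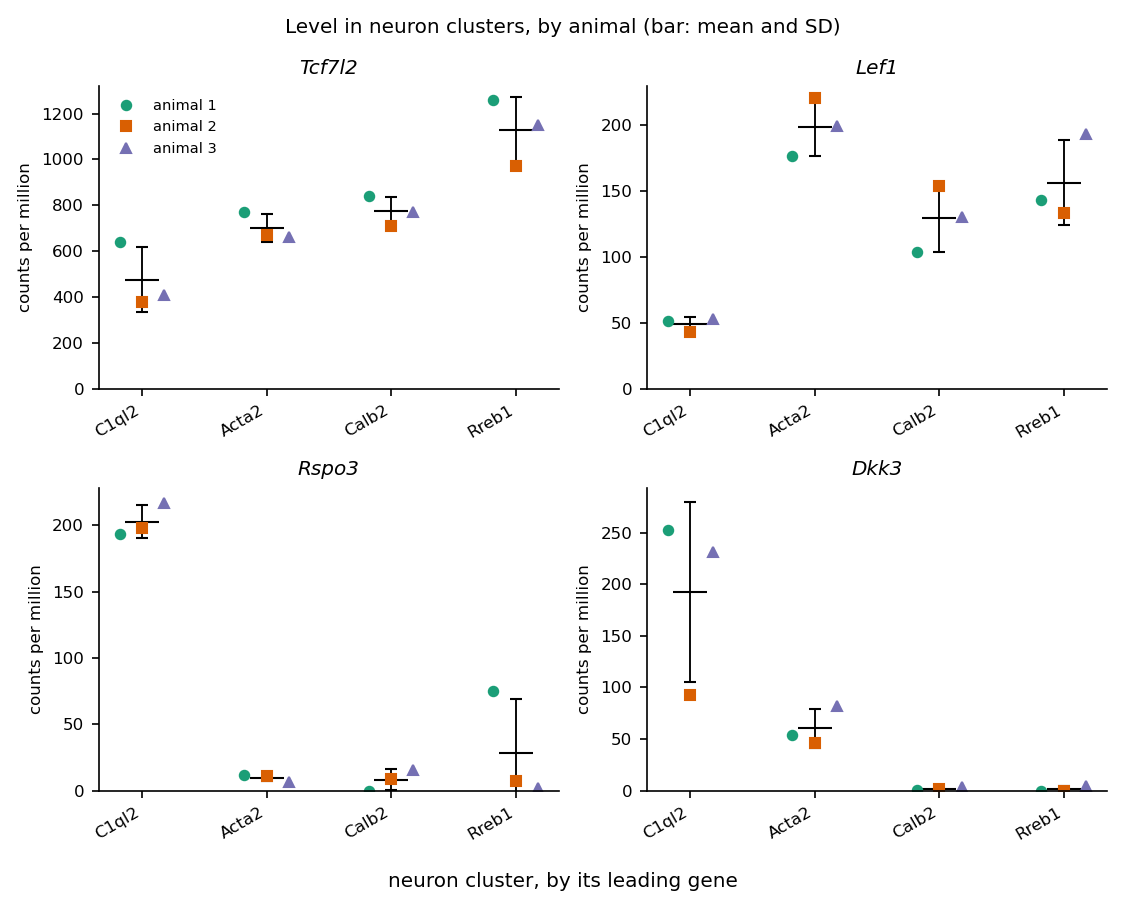
Levels in CPM (y axis) of the 4 genes in the C1ql2, Acta2, Calb2 and Rreb1 neuron clusters (x axis); each point is 1 animal, and bars give the mean and SD over 3 animals. Tcf7l2 and Lef1 are lowest in the C1ql2 cluster (means 475 and 49.3 CPM), where Rspo3 and Dkk3 are highest (means 203 and 192 CPM).

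In the C1ql2 cluster 32 of 39 cells held both Rspo3 and Dkk3, 3 held Rspo3 only, 3 held Dkk3 only and 1 held neither. In the Acta2 cluster 10 of 410 cells held both and 125 held Dkk3 only. Of the 135 Acta2 cells with Dkk3, 116 held no count of C1ql2. Because a deeper cell shows a gene more readily, cells were also thinned to 5000 counts, which left out 0, 61 and 2 cells of animals 1, 2 and 3. Rspo3 was then counted in 66.7% ± 16.7 of C1ql2 cells (SD, n = 3 animals), against 3.14% ± 0.861 of Acta2, 2.30% ± 2.02 of Calb2 and 4.44% ± 7.70 of Rreb1 cells. Dkk3 was counted in 56.0% ± 6.26 of C1ql2 cells, against 20.0% ± 3.36 of Acta2, 0.505% ± 0.875 of Calb2 and 1.02% ± 1.77 of Rreb1 cells. Lef1 was counted in 9.26% ± 8.49 of C1ql2 cells, against 44.9% ± 4.69 of Acta2, 29.6% ± 16 of Calb2 and 35.8% ± 9.12 of Rreb1 cells. Unthinned, Lef1 was counted in 47.7% ± 24.4 of C1ql2, 69.6% ± 9.45 of Acta2, 44.6% ± 15.4 of Calb2 and 51.5% ± 19.0 of Rreb1 cells, so its unthinned shares did not set the deeper C1ql2 cells below the Calb2 cells. Tcf7l2 was counted in 78.7% ± 4.24 of C1ql2 cells, against 86.7% ± 4.59 of Acta2, 86.7% ± 2.24 of Calb2 and 97.5% ± 2.55 of Rreb1 cells. For comparison, the cells with oligodendrocyte markers gave 0% for Dkk3, 3.57% for Rspo3, 16.3% for Lef1 and 45.2% for Tcf7l2 at 5000 counts (means of 2 animals, from cells with a median of 25264 counts unthinned). Those cells are no blank, since they also held thalamic glutamatergic markers at 2055 and 2076 CPM and neuron markers at 3849 and 4494 CPM in animals 2 and 3.

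In the sections, spots were sorted into 12 regions, again without the 4 genes or the Wnt list. Region 7, led by Shox2 and with Gbx2, Slc17a6 and Lhx9 among its leading genes, held the highest level of the thalamic glutamatergic markers and is called the thalamic region. It covered 207, 201 and 250 spots of sections 2, 5 and 6, out of 2794, 2540 and 2493. All 10 of the thalamic markers were counted there in each section. A spot mixes cells, so fewer cells of a type and less RNA per cell cannot be told apart. Section totals ran between 13788407 and 26032042 counts, and of 4182 slide positions 2393 occur in 2 or more sections, since a spot barcode marks a place on the slide.

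Tcf7l2 stood at 693, 733 and 680.4 CPM in the thalamic region of sections 2, 5 and 6, against 21.9, 24.6 and 25.9 CPM over all other spots. The thalamic region held 72.8%, 69.7% and 72.7% of all Tcf7l2 counts of sections 2, 5 and 6 on 7.41%, 7.91% and 10.0% of their spots. Next came the Oxt region (mean 55.4 CPM) and the Unc13c region (51.3 CPM), whose ranges overlap. Lef1 was at 46.3, 46.4 and 61.3 CPM in the thalamic region, against 4.92, 4.38 and 5.93 CPM elsewhere, with 44.3%, 45.1% and 51.2% of its counts there. Outside, Lef1 averaged 12.9 ± 6.73 CPM in the Fmod region and 11.6 ± 1.19 CPM in the Ttr region (SD, n = 3 sections), the highest of the others. The log2 difference of the thalamic region from the mean of the other regions was 4.84 ± 0.07 for Tcf7l2 and 3.04 ± 0.16 for Lef1 (SE, edgeR). Both genes were higher in the thalamic region of all 3 sections than in any other region.

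The genes of the secreted proteins were distributed otherwise. Dkk3 was at 25.1, 31.3 and 39.1 CPM in the thalamic region of sections 2, 5 and 6, against 127, 96.9 and 113 CPM over all other spots, and only 1.65%, 2.44% and 3.41% of its counts lay there. Its high regions were the Trbc2 region (mean 261 ± 30.9 CPM), the Fmod region (130.0 ± 31.3 CPM) and the Lamp5 region (119.7 ± 26.8 CPM; SD, n = 3 sections). The Cabp7 region, present in section 6 alone, held 325 CPM. Rspo3 was at 9.36, 25.2 and 8.76 CPM in the thalamic region, against 7.12, 9.14 and 8.00 CPM elsewhere. The Lmo3 region (17.1 ± 3.54 CPM) and the Fmod region (15.5 ± 4.99 CPM) overlapped with the thalamic region and had higher means than its 14.5 ± 9.35 CPM. The Trbc2, Lamp5 and Ttr regions overlapped with it as well. The thalamic region differed from the mean of the other regions by a log2 difference of -0.95 ± 0.16 for Dkk3 and 1.05 ± 0.25 for Rspo3 (SE). For Rspo3 the difference was 0.68 without section 5 and 0.56 from the mean of each spot's CPM.

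**Figure D2:**
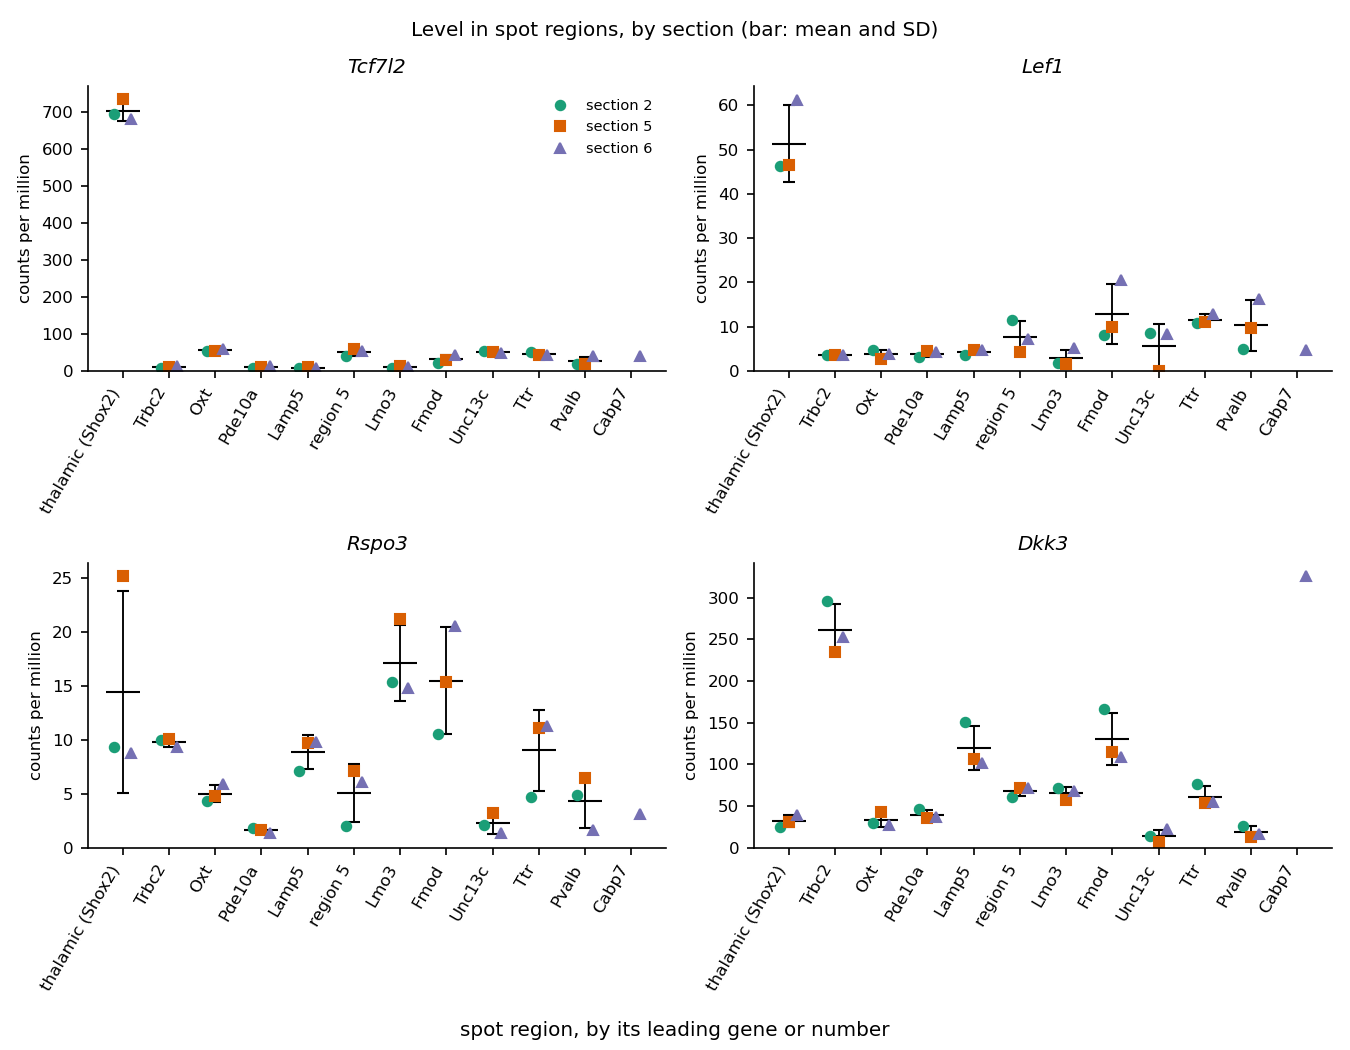
Levels in CPM (y axis) of the 4 genes in 12 spot regions named by their leading gene, or in 1 case by number (x axis, thalamic region first); each point is 1 section, and bars give the mean and SD over 3 sections, with none for the Cabp7 region of section 6. Tcf7l2 and Lef1 peak in the thalamic region (means 702 and 51.4 CPM), whereas Dkk3 peaks in the Trbc2 and Cabp7 regions and averages 31.8 CPM in the thalamic region.

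Within the thalamic region, 6 subregions were found, of which 4 had at least 5 spots in every section. The C1ql2 subregion (10, 16 and 16 spots in sections 2, 5 and 6) was led by C1ql2 and also by Gng13 and Chrm1, which led the C1ql2 cluster of neurons as well. Rspo3 was at 87.8, 127 and 60.9 CPM in the C1ql2 subregion, against 2.89, 14.1 and 1.23 CPM in the Nexn subregion and 0, 7.96 and 4.71 CPM in the Foxp2 subregion. The Slc32a1 subregion held 7.21, 0 and 0 CPM. The C1ql2 subregion thus held 39 of the 59 Rspo3 counts of the thalamic region on 42 of its 658 spots, and its range lay apart from those of the other 3. In the Tac2 subregion, too small to be compared, 1 count on 2 spots of section 5 gave 112 CPM. Dkk3 was at 139, 142 and 183 CPM in the C1ql2 subregion, against 21.7, 25.4 and 34.4 CPM in the Nexn subregion, 19.7, 3.98 and 9.42 CPM in the Foxp2 subregion and 10.1, 0 and 0 CPM in the Slc32a1 subregion. So 70 of the 149 thalamic Dkk3 counts came from these 42 spots. The log2 difference of the C1ql2 subregion from the mean of the other 3 was 4.09 ± 0.52 for Rspo3 and 3.39 ± 0.32 for Dkk3 (SE), or 5.17 and 5.11 without section 2.

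Tcf7l2 was at 490.3, 490.2 and 365 CPM in the C1ql2 subregion of sections 2, 5 and 6. The Nexn subregion held 679, 682 and 631 CPM, the Foxp2 subregion 882, 959 and 942 CPM, and the Slc32a1 subregion 610, 552 and 475 CPM. In each section Tcf7l2 was lowest in the C1ql2 subregion and highest in the Foxp2 subregion, and over sections the C1ql2 range overlapped only with that of the Slc32a1 subregion. The log2 difference of the C1ql2 subregion was -0.67 ± 0.13 (SE). Lef1 was at 36.6, 23.7 and 22.1 CPM there, from 12 counts in all, and the log2 difference of -0.93 ± 0.42 came with overlapping ranges. In sections 2 and 5 Lef1 was higher in the C1ql2 subregion than in the Foxp2 subregion, which held 31.4 and 15.9 CPM. Lef1 had its highest mean in the Nexn subregion, with 66.6, 70.4 and 81.0 CPM, although the Slc32a1 subregion reached 94.6 CPM in section 5 from 6 counts. Summed neuron markers were higher in the C1ql2 subregion than in the other fitted subregions, at 9741, 8571 and 9647 CPM, against 4078 to 5628 CPM, and oligodendrocyte markers were at 6265, 4736 and 4334 CPM, against 3663 to 9907 CPM. Thalamic glutamatergic markers had a geometric mean of 90.4 CPM there, with sections pooled, against 163 to 217 CPM in the other fitted subregions. The part of these in the differences was not tested.

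**Figure D3:**
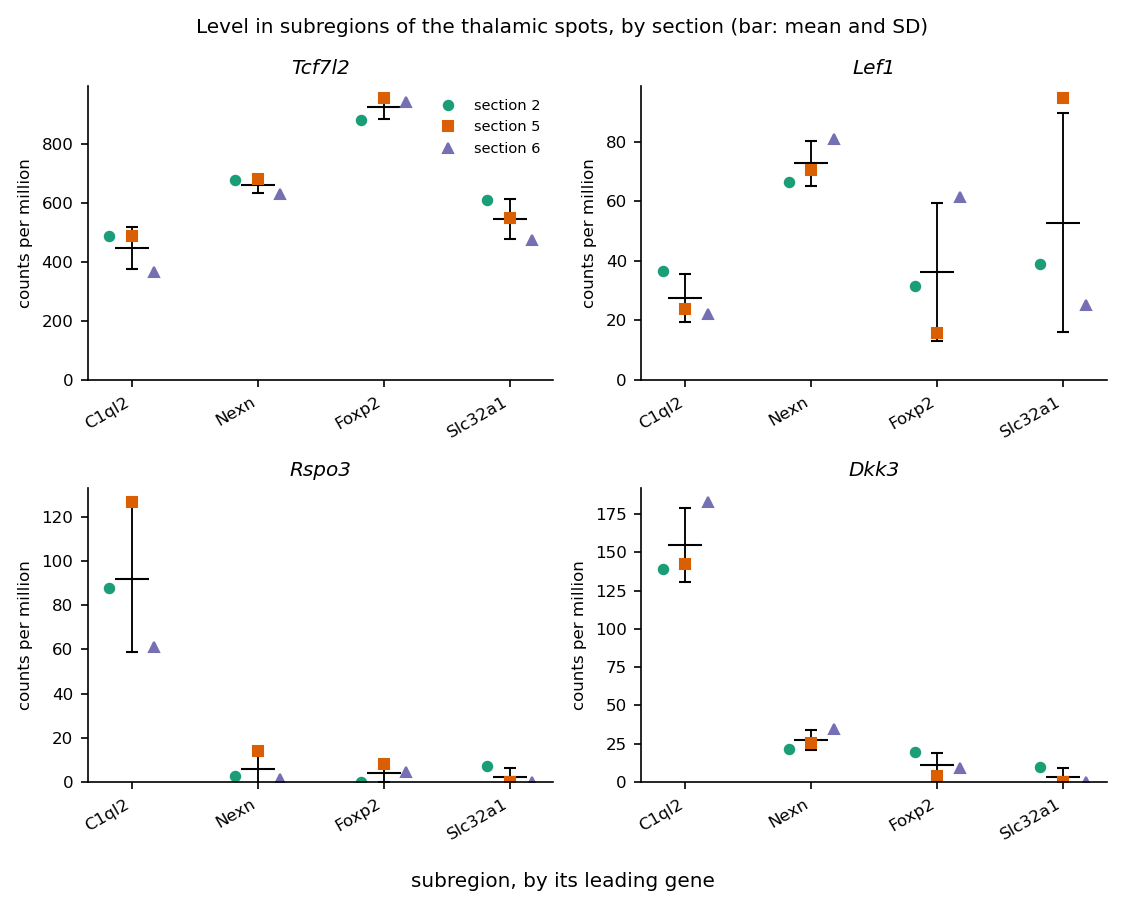
Levels in CPM (y axis) of the 4 genes in 4 subregions of the thalamic spots named by their leading gene (x axis, C1ql2 subregion first); each point is 1 section, and bars give the mean and SD over 3 sections. In the C1ql2 subregion Rspo3 and Dkk3 are highest (means 91.7 and 155 CPM) and Tcf7l2 is lowest (mean 449 CPM).

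The posterior sections 2 and 6 were set beside the single anterior section 5, with exact Poisson 95% intervals that cover counting error only. Rspo3 in the thalamic region was at 9.36 and 8.76 CPM in the posterior sections, against 25.2 CPM (16.3 to 37.3) in the anterior section, a ratio of 0.359. Inside the C1ql2 subregion it was at 87.8 and 60.9 CPM in the posterior sections, against 127 CPM (72.3 to 205) in the anterior section, and 1 of the 2 posterior values lay within that interval. Tcf7l2 (posterior 693 and 680.4 CPM, anterior 733 CPM, 681 to 788) had a ratio of 0.937. Lef1 had a ratio of 1.16 and Dkk3 of 1.03, and for both the anterior interval held both posterior values. With 1 anterior section there is no replicate check of these ratios.

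The genes whose levels ran most like those of the members were found by Pearson correlation over 12 animal-by-cluster sums of neurons (7502 genes) and over 33 section-by-region sums of spots (7661 genes). The sums share animals, sections and depth differences, so the coefficients are descriptions. Among neurons, Tcf7l2 ran closest to Pclo, a presynaptic scaffold gene (r = 0.99), then Htt, Plekha5, Gm42770 and Unc13b. Lef1 ran closest to the calcium channel subunit gene Cacna2d1 (r = 0.97), then Slc9a3r1, Ildr2, Rgs8 and 2900055J20Rik. Rspo3 ran closest to Srsf12 (r = 0.95), then Phyhipl, Ankrd9, Ube2v2 and Psmc6. Dkk3 ran closest to Stt3b (r = 0.96), then Atp1b1, Bri3bp and Nrp1. Between members, Tcf7l2 and Lef1 gave r = 0.75, Dkk3 and Rspo3 gave r = 0.60 and Dkk3 and Tcf7l2 gave r = -0.82. Across spots, Tcf7l2 ran closest to Amotl1 (r = 0.95), then Prkcd, Zic1, Calb2 and Shox2. Lef1 ran closest to Maob (r = 0.82), then Shox2, Prkcd, Fam101b and Synpo2. Rspo3 ran closest to Nrn1 (r = 0.81), then Ildr2, Ppia, C1ql3 and Asph. Dkk3 ran closest to Myl4 (r = 0.89), then Neurod6, 3110035E14Rik, Ipcef1 and Neurod2. Tcf7l2 and Lef1 gave r = 0.73 across spots, while Dkk3 and Tcf7l2 gave r = -0.42.

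The other Wnt pathway genes were read from a list of 99, in the same edgeR fits with Benjamini-Hochberg adjustment over all genes at a threshold of 0.05. The CPM set against those of a cluster or region are plain means over the others unless 1 is named, while log2 differences use log2 levels. In the C1ql2 cluster, of 56 list genes tested, 6 rose (all genes: 6.73% rose), 2 fell (all genes: 6.88% fell) and 48 did not pass. Counts this small do not set the list apart from all genes. The list's median log2 difference was -0.50, against -0.23 over all 12208 genes. Since the clusters were made from other genes of the same cells, these calls describe the clusters. Among ligands, Wnt5b rose to 29.9, 12.4 and 6.23 CPM in the C1ql2 cluster, against 0.112, 1.22 and 1.01 CPM in the others (log2 4.48 ± 1.07, adjusted p = 0.0102, 3 of 3 animals), but 48.8% of its counts lay in 1 cell. Without animal 1 the log2 difference of Wnt5b was 3.01 (adjusted p = 0.0501) and without animal 2 it was 5.13 (adjusted p = 0.0950), and without animal 3 the gene fell below the count filter and was not tested. Wls, which carries Wnt ligands to the cell surface, rose to 233, 93.0 and 85.0 CPM, against 27.2, 52.4 and 46.1 CPM (log2 1.89 ± 0.40, adjusted p = 0.00469), or by 1.12 without animal 1. The Calb2 cluster alone held Wls at 34.4, 88.8 and 79.4 CPM, close to the C1ql2 cluster in animals 2 and 3. The receptor gene Fzd9 rose to 51.2, 80.6 and 24.3 CPM, against 1.24, 1.84 and 3.98 CPM (log2 6.27 ± 1.15, adjusted p = 0.00225), from 17 of 39 cells.

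Of 13 nuclear factor genes of the list tested in the C1ql2 cluster, 3 rose (all genes: 6.73%) and 2 fell (all genes: 6.88%). These counts are too small to set the group apart from all genes. The co-repressor gene Ctbp2 rose to 62.5, 62.0 and 109 CPM, against 10.8, 10.8 and 6.82 CPM (log2 3.87 ± 0.61, adjusted p = 0.000463), and Tle4 to 105, 24.8 and 36.7 CPM, against 14, 14.7 and 10.1 CPM (log2 2.08 ± 0.64, adjusted p = 0.0421). Ctnnbip1, which encodes an inhibitor of β-catenin binding to TCF factors, rose to 257, 266 and 148 CPM, against 174, 92.1 and 82.7 CPM (log2 0.99 ± 0.31, adjusted p = 0.0429). In animal 1 the Rreb1 cluster held it at 313 CPM, above the C1ql2 cluster. Tnik, a kinase gene of the TCF complex, fell to 124, 55.8 and 148 CPM, against 310.2, 251 and 288 CPM (log2 -1.29 ± 0.27, adjusted p = 0.00434). Tle3, another co-repressor gene, fell to 1 count in 39 cells (log2 -5.46 ± 1.46, adjusted p = 0.0201), at 0, 0 and 0.311 CPM, against 6.72, 17.4 and 17.8 CPM. Fzd9, Ctbp2 and Wls passed with each animal left out in turn, Tnik in 2 of these 3 fits, and Tle3, Tle4 and Ctnnbip1 in 1. The Wls call was lost with clusters made on all variable genes (adjusted p = 0.0843), with cells of at least 2000 genes (0.0808) and with the wells recorded under another animal kept (0.104). So was the Tle4 call in the same settings (edgeR adjusted p = 0.0568, 0.0915 and 0.0589). Over 10 alternatives, calls were kept in 10 for Ctbp2 and Fzd9, 9 for Tnik, 8 for Tle3 and 7 for Wls. Ctnnbip1 was kept in 6, and Tle4 and Wnt5b in 4. When animal 1, 2 or 3 was left out, edgeR called 14 of 59, 3 of 60 or 4 of 44 list genes tested. The β-catenin gene Ctnnb1 averaged 360 ± 43.1 CPM in the C1ql2 cluster and 487 ± 61.7 CPM in the others (log2 -0.40 ± 0.20, adjusted p = 0.210), and did not pass. The feedback target Axin2 averaged 13.5 ± 19.2 CPM, against 16.2 ± 1.11 CPM, and Nkd1 53.3 ± 36.9 CPM, against 25.4 ± 5.07 CPM (SD, n = 3 animals), and neither passed.

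In the C1ql2 subregion of the sections, on 42 spots and few counts, not all the called genes had the order seen in the neurons. Fzd9 was at 51.2, 47.4 and 11.1 CPM there, from 7, 6 and 2 counts, against 5.79, 5.63 and 12.3 CPM in the Nexn subregion, so it was not higher in section 6. Tle4, at 80.5, 79.1 and 44.3 CPM, was the highest of the 4 subregions in sections 2 and 5, as was Ctbp2 from 2 and 3 counts, and neither was in section 6. Wls was highest there in sections 2 and 6, and Tle3 was lowest in all 3 sections from 4 counts. Ctnnbip1 was at 65.9, 79.1 and 105 CPM in the C1ql2 subregion, against 124, 131 and 96.6 CPM in the Foxp2 subregion, and so was lower in sections 2 and 5. Tnik was at 73.2, 71.2 and 77.5 CPM, against 72.1, 47.3 and 50.0 CPM in the Slc32a1 subregion, and was not the lowest in any section. Wnt5b had 1, 3 and 0 counts.

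In the Rreb1 cluster, 2 of the 56 list genes rose (all genes: 7.09% rose), 2 fell (all genes: 6.6% fell) and 52 did not pass. The list's median log2 difference there was 0.30, against 0.04 over all genes. Tnik rose to 362, 320 and 356 CPM in the Rreb1 cluster, against 231, 163 and 219 CPM (log2 0.93 ± 0.23, adjusted p = 0.0137). Tle3 rose (log2 2.91 ± 0.86, adjusted p = 0.0342) with 1.75, 31.5 and 31.0 CPM, against 6.13, 6.94 and 7.57 CPM, higher in 2 of 3 animals. Fzd9 was at 0 counts in 174 cells and Ctbp2 fell to 1.75, 4.84 and 1.67 CPM, against 31.1, 29.9 and 42.6 CPM (log2 -2.89 ± 0.92, adjusted p = 0.0476). Low Ctbp2 was not particular to the Rreb1 cluster. The Acta2 cluster alone held it at 0.674, 1.78 and 6.08 CPM, below the Rreb1 cluster in animals 1 and 2. With the wells recorded under another animal kept, the difference was -0.37 for Ctbp2 (adjusted p = 0.822) and -1.72 for Fzd9 (adjusted p = 0.376), and with clusters made on all variable genes it was -1.93 for Fzd9 (adjusted p = 0.357). Without cells holding 3 markers of another type it was -1.87 for Ctbp2 (adjusted p = 0.165). Over 10 alternatives, the calls in the Rreb1 cluster were kept in 6 for Ctbp2 and Fzd9, 5 for Tnik and 4 for Tle3. The same 4 genes were called in the opposite direction in the C1ql2 cluster, which is 1 of the 3 that the Rreb1 cluster was set against. The count called was 10 of 59 tested without animal 1. It was 0 of 60 without animal 2 and 0 of 44 without animal 3. In the Acta2 cluster edgeR called 0 list genes up (all genes: 0.762%) and 0 down (all genes: 0.319%). The median log2 difference there was 0.35 against 0.15 over all genes, and 8 list genes had an unadjusted p under 0.05. DESeq2 called 4 of the 88 list genes that it tested there. In the Calb2 cluster edgeR called 0 up (all genes: 1.15%) and 0 down (all genes: 0.205%). The median there was 0.10 against 0.12, and 5 list genes had an unadjusted p under 0.05. DESeq2 called 2 of 87 tested. Without animal 1, edgeR called 6 of 59 list genes tested in each of these clusters.

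In the thalamic region of the sections, 19 of 74 list genes tested rose (all genes: 17.6% rose), 10 fell (all genes: 13.7% fell) and 45 did not pass. The list's median log2 difference was 0.05, against 0.00 over all 12905 genes. By role, 5 of 9 ligand genes rose and 4 of 7 secreted inhibitor genes fell. Of 14 receptor genes 4 rose and 2 fell, of 13 transduction genes 3 rose and 1 fell, of 16 nuclear factor genes 2 rose and 2 fell, and of 7 feedback targets 3 rose and 1 fell. Of 6 genes of R-spondins and their receptors 1 rose, as did 1 of 2 genes of ligand processing. No test set the list against all genes. Wnt3 rose to 18.7, 28.3 and 26.3 CPM in sections 2, 5 and 6, against 2.55, 3.91 and 3.79 CPM in the other regions (log2 3.32 ± 0.25, adjusted p = 2.00e-17). Wnt4 rose to 16.7, 29.3 and 33.3 CPM, against 9.62, 10.4 and 11.7 CPM (log2 1.81 ± 0.24), and Wnt9a to 15.3, 22.2 and 13.4 CPM, against 7.07, 8.68 and 10.1 CPM (log2 1.79 ± 0.25). Wnt7a and Wnt10a rose less, by 0.78 ± 0.22 and 1.17 ± 0.41, and Wnt10a did not exceed the plain mean of the other regions in 1 of 3 sections. Among the inhibitors, the Dickkopf-like gene Dkkl1 fell to 0.493, 2.02 and 1.17 CPM, against 18.4, 13.1 and 13.3 CPM (log2 -2.74 ± 0.47, adjusted p = 3.05e-06). Sfrp1 and Frzb, whose secreted products bind Wnt ligands, fell by 2.45 ± 0.49 and 2.27 ± 0.44 on the log2 scale, and Kremen1, a gene of a Dickkopf receptor listed with them, fell by 0.96 ± 0.24.

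Receptors split. Fzd10 rose to 11.3, 12.1 and 16.4 CPM in the thalamic region, against 1.90, 1.45 and 1.83 CPM (log2 3.28 ± 0.33, adjusted p = 1.99e-12), Fzd1 to 34.0, 21.2 and 29.2 CPM, against 8.52, 8.97 and 7.58 CPM (log2 1.82 ± 0.19), and Fzd9 and Fzd8 rose by 1.15 ± 0.27 and 1.00 ± 0.35. Fzd2 fell to 1.97, 3.03 and 1.17 CPM, against 15.4, 14 and 16.7 CPM (log2 -2.88 ± 0.37, adjusted p = 3.57e-09), and the co-receptor gene Lrp6 fell by 0.48 ± 0.14. Of the R-spondin receptors, Lgr6 rose to 8.87, 10.1 and 9.34 CPM, against 2.76, 3.35 and 2.60 CPM (log2 1.84 ± 0.36), while Lgr4, at 18.8 ± 3.43 CPM in the thalamic region and 20.0 ± 2.20 CPM in the other regions (SD, n = 3 sections), and the ligase genes Znrf3 and Rnf43 did not pass. Wls rose to 67.0, 56.5 and 65.4 CPM, against 43.9, 44.1 and 44.0 CPM (log2 0.72 ± 0.10).

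Further down the pathway, Ctnnb1 rose to 578, 516 and 547 CPM in the thalamic region, against 306, 284 and 286 CPM (log2 0.86 ± 0.06, adjusted p = 5.94e-19), with the groups apart. Csnk1e, a kinase gene of the pathway, rose by 0.53 ± 0.10 and Dvl2, a scaffold gene upstream of β-catenin, fell by 0.76 ± 0.23. Gsk3b, whose product marks β-catenin for destruction, averaged 212 ± 33.1 CPM in the thalamic region and 186 ± 15.4 CPM in the others and did not pass (edgeR adjusted p = 0.0883). Of the nuclear factors, Ctnnbip1 rose by 0.93 ± 0.10 and Pygo2 by 0.47 ± 0.13, while the co-repressor genes Tle2 and Tle4 fell by 0.95 ± 0.26 and 0.52 ± 0.13. Of the feedback targets, Nkd1 rose to 39.4, 47.4 and 44.4 CPM, against 14.2, 16.3 and 18.2 CPM (log2 1.59 ± 0.14, adjusted p = 4.73e-14), and Axin2 to 36.0, 34.3 and 28.6 CPM, against 19.8, 20.3 and 18.2 CPM (log2 0.72 ± 0.14, adjusted p = 2.63e-05). Bambi rose by 1.37 ± 0.23 and Tnfrsf19 fell by 0.56 ± 0.14, while Ccnd1 and Myc did not pass. Leaving out 1 section gave 27 of 69, 26 of 75 and 28 of 73 tested list genes called without sections 2, 5 and 6. Wnt10a and Dvl2 passed in 1 of these 3 fits and Wnt7a, Fzd8, Lrp6, Pygo2 and Tle2 in 2. Oligodendrocyte markers summed to 6335 to 7011 CPM in the thalamic region and astrocyte markers to 2920 to 3447 CPM, so the spots held glia, whose part in these differences was not tested.

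**Figure D4:**
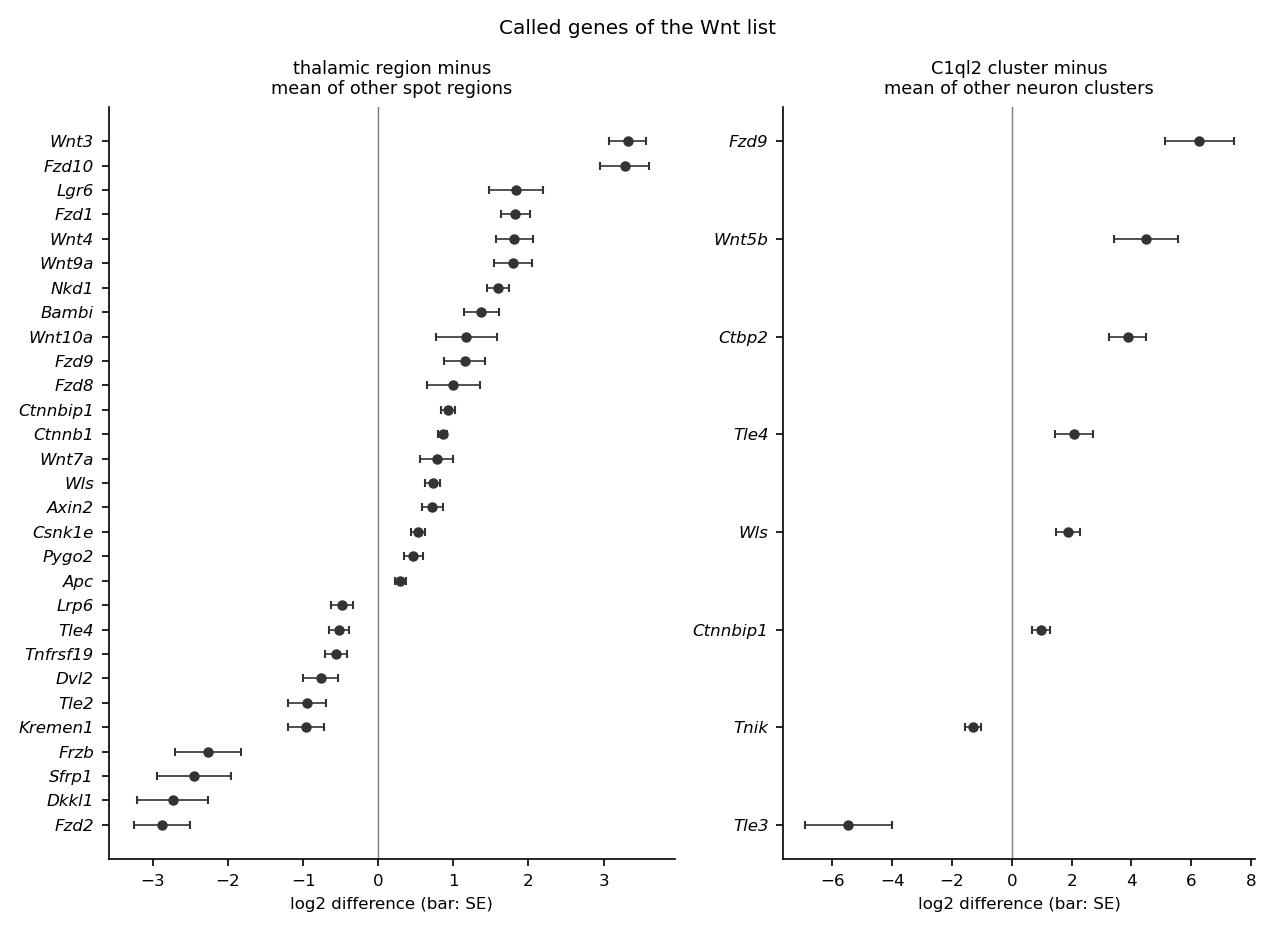
Log2 differences with SE (x axis) of the genes called in the list of 99 Wnt pathway genes (y axis), for the thalamic region against the other spot regions (left, 29 genes) and the C1ql2 cluster against the other neuron clusters (right, 8 genes). Wnt3 and Fzd10 lie farthest to the right in the thalamic region (3.32 and 3.28), and Fzd2 and Dkkl1 farthest to the left (-2.88 and -2.74).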

How the data were processed

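The authors deposited raw counts per gene and well and per gene and spot. A deposited well table gives each well's animal number, and a deposited spot list each spot's section. Per the submitters' processing notes, Space Ranger and Seurat and the builds NCBIM37 and mm10 were used. What each was used for, and whether reads or molecules were counted in cells, is not given in the sources used here. PCR copies would make intervals too narrow.

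The 4 genes and the lists were chosen with earlier results of these data known. Of 1216 wells with an animal number, 904 with at least 1000 genes were kept, after 9 wells recorded under another animal were left out. The 14 single-cell samples could not be tied to plates by name, so the animal was the replicate. Leiden clustering used 30 components of the 2000 most variable genes, leaving out the members and the Wnt list, after scaling to 10000 counts and a log transform (15 neighbours, resolution 0.5; scanpy 1.11.5, Python 3.11.15). No doublet caller was run on the hand-picked cells; 41 neurons with at least 3 markers of another type were left out in an alternative. Sums of counts were taken for each cluster in each animal and each region in each section (at least 5 cells or spots). They were fitted in edgeR 4.0.16 (R 4.3.3, quasi-likelihood F test, TMM, filterByExpr, animal or section as block) after a test on simulated data. Each group was set against the equally weighted mean of the others' log2 levels. Sums of 1 animal or 1 section are paired because they share it; the median residual correlation was 0.07 within animals and -0.04 between, and 0.08 within sections and -0.05 between. Alternatives were DESeq2 1.42.0, no filter on low counts, no block, other clusterings and left-out replicates. The genes named were the members, the called Wnt list genes by size, up to 4 others per role by level, and 5 genes most like each member (mean of at least 20 CPM, log2(CPM + 1), replicate mean removed); a few of these are not reported here. Figures used matplotlib 3.10.9.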

Additional observations from a re-analysis of the deposited data

Results flagged for a closer look

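The cells with oligodendrocyte markers, set apart from the neurons, held Tcf7l2 at 456 CPM (13 of 27 cells), against 87.9 CPM in spike-in and blank wells (7 counts in 72 wells; exact Poisson 95% interval 35.3 to 181). Lef1 was at 59.4 CPM in the same cells (46.7 to 74.5), against 0 counts in those wells, which allow up to 46.3 CPM. It came from 75 counts in 7 of 27 cells, 71 of them in animal 3, where 1 cell held 49.3%. Both levels came from cells outside the comparisons and lay above those of the spike-in and blank wells. The intervals cover counting error only, and that of Lef1 starts close to the limit of those wells. The same cells also held neuron markers at 3849 and 4494 CPM and thalamic glutamatergic markers at 2055 and 2076 CPM in animals 2 and 3, beside oligodendrocyte markers at 63170 and 52934 CPM. The part of these in the Tcf7l2 and Lef1 levels was not tested. The top cell held 39.5% of the Tcf7l2 counts in animal 3.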

How the results depend on the processing

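Every log2 difference of a member that was compared under an alternative kept its direction. For the C1ql2 cluster, Rspo3 gave 4.94 from the mean of each cell's CPM and 3.94 to 5.08 with 1 animal left out, and Dkk3 gave 4.44 to 6.63 with 1 animal left out. In an alternative chosen after seeing the data, without the cell with the most counts of the gene, Rspo3 gave 5.15 and Lef1 -2.09. For the C1ql2 subregion, with alternatives also chosen after seeing the data, Rspo3 gave 4.73 from the mean of each spot's CPM and 4.15 to 5.17 with 1 section left out, and Dkk3 3.27 to 5.11. The share of C1ql2 cells with a count was, thinned to 2000 counts and unthinned, 58.8% and 98.6% for Tcf7l2, 38.0% and 89.8% for Rspo3 and 26.9% and 85.6% for Dkk3, and unthinned 47.7% for Lef1. These shares follow depth by construction.

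Counts of Wnt list genes called moved more. DESeq2 called 4 of 88, 2 of 87, 9 of 59 and 15 of 63 tested genes in the Acta2, Calb2, Rreb1 and C1ql2 clusters. The main edgeR fits called 0, 0, 4 and 8 of 56. Without a filter on low counts 2, 1, 3 and 9 of 98 were called, and with clusters made on all variable genes 1, 1, 1 and 5 of 55. Without cells holding 3 markers of another type, an alternative chosen after seeing the data, 1, 1, 3 and 8 of 55 were called. With 1 animal left out the counts ran 0 to 6, 0 to 6, 0 to 10 and 3 to 14, of 44 to 60 tested. The numbers tested thus differ between settings, and the share of all genes called was taken for the main fits only. The thalamic region kept to 26 to 36 called genes under all of its alternatives, of 69 to 97 tested, against 29 of 74. With no replicate block, 5, 7 and 29 genes were called in the Rreb1 cluster, the C1ql2 cluster and the thalamic region, and the Tcf7l2 difference of the C1ql2 cluster was -0.82; no count moved by over 1.5 times. The cause of these shifts was not tested. Animal 2 had 3106802 neuron counts, the fewest, and the C1ql2 cluster held 6, 9 and 24 cells of animals 1, 2 and 3, which limits every value there.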

Other observations

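The unnamed cluster of 25 neurons, which was not compared, held Tcf7l2 at 945 CPM in animal 2 and 1087 CPM in animal 3, with a count in all 25 cells. Lef1 was at 367 CPM (14 counts) and 45.8 CPM (24 counts) in the same animals. Dkk3 had 0 counts in animal 2 and was at 57.3 CPM in animal 3, from 30 counts in 5 of 17 cells. Rspo3 had 0 counts in animal 2 and was at 42.0 CPM in animal 3, from 22 counts in 1 cell.

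Of the subregions seen in fewer than 3 sections, the Oxt subregion held Tcf7l2 at 725 to 755 CPM in sections 5 and 6, and the Tac2 subregion held 452 CPM in section 6, from 28 counts on 6 spots.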
